A study of Homo sapiens with 6 samples.

Results

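Transcripts of 8 genes were followed in WM164 cells: 7 receptor genes of the neurotrophin and GDNF (glial cell line-derived neurotrophic factor) families, namely NGFR, NTRK2, NTRK3, GFRA1, GFRA2, GFRA3 and RET, and BDNF, the ligand of NTRK2. They were taken by gene symbol from a table of 60504 genes, and all 8 were found there once. WM164 is an established human melanoma cell line with BRAF V600E. The cells carried either an empty expression vector (EV, 3 libraries) or an HDAC8 expression vector (HDAC8, 3 libraries), were transfected with plasmid and were kept in hygromycin. HDAC8 is a class I histone deacetylase, and RNA-seq was used to ask how raising it changes transcription. Whether the lines were clones or pools, and whether the libraries of a group came from separate cultures, is not stated, so p-values measure only the spread between these libraries, which may be technical. The 8 genes were chosen by their normalized counts and fold changes in this same comparison, so their own changes are described here and not tested.

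Neurotrophins are secreted growth factors of the nervous system. They bind TRK receptor tyrosine kinases (among them TRKB from NTRK2 and TRKC from NTRK3) and the shared receptor p75NTR, the product of NGFR, which has no kinase and marks neural crest stem cells, from which melanocytes derive. Ligands of the GDNF family bind a GFRA co-receptor that is anchored to the membrane by lipid, and the complex activates the kinase RET, or signals through the adhesion molecule NCAM1. In melanoma, NGFR is widely used to mark cells in a dedifferentiated, neural crest-like state.

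Total counts were 34741083 to 42041462 per library, with overlapping depth in the groups. HDAC8 itself had 383.8, 404.4 and 478.8 normalized counts (counts divided by the DESeq2 size factor of the library) in EV and 484.8, 445.5 and 473.7 in HDAC8, and these overlapped (DESeq2 adjusted p = 0.856), so its transcript does not check the labels and HDAC8 below means the libraries so labelled. Mitochondrial transcripts took 9.66% to 12.8% of counts in EV and 4.46% to 7.94% in HDAC8. Of 6 melanocyte lineage markers all were detected, with summed normalized counts of 244000 to 328000 in EV and 136000 to 181000 in HDAC8. MLANA (-4.84 on the log2 scale, DESeq2 adjusted p = 2.36e-161), TYR, DCT and PMEL were called lower, and MITF and SOX10 were not called. Of 18 markers of other cells 3 (DCN, EPCAM and CDH5) were at 0 in every library, and the 18 summed to 13500 to 16200 in EV and 15300 to 19300 in HDAC8. The neuronal markers RBFOX3, SNAP25 and SYT1 summed to 59.1 to 186 in EV and 59.9 to 154 in HDAC8. Among the 18, CD68, CD3E and PDGFRA were called higher, while the pan-leukocyte gene PTPRC had 3 counts in 1 library and none elsewhere. The part of these differences in the results below was not tested. In bulk RNA, fewer cells with a transcript and less transcript per cell cannot be told apart.

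NGFR, NTRK2 and GFRA1 were higher in HDAC8, and BDNF and NTRK3 were lower, in each case with no overlap between the libraries of the 2 groups. RET and GFRA3 had few reads and overlapped, and GFRA2 was nearly absent, with 3 counts in 1 library in all. Calls used the thresholds of the study methods, a DESeq2 adjusted p under 0.05 with a change of at least 0.58 on the log2 scale. A figure legend of the study instead gives an unadjusted p under 0.05 with the same minimum change. GFRA2 was under the minimum of 10 counts in total and was not fitted. Of the 7 genes fitted, 3 were called higher and 2 lower, where over all 21021 genes with an adjusted p the share called was 5.57% higher and 5.44% lower. The libraries of HDAC8 were all above those of EV in 3 of the 7 and all below in 2, against 11.3% and 12.7% of the 26162 genes fitted. Since the genes were chosen with this contrast known, nothing is read from these shares.

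**Figure D1:**
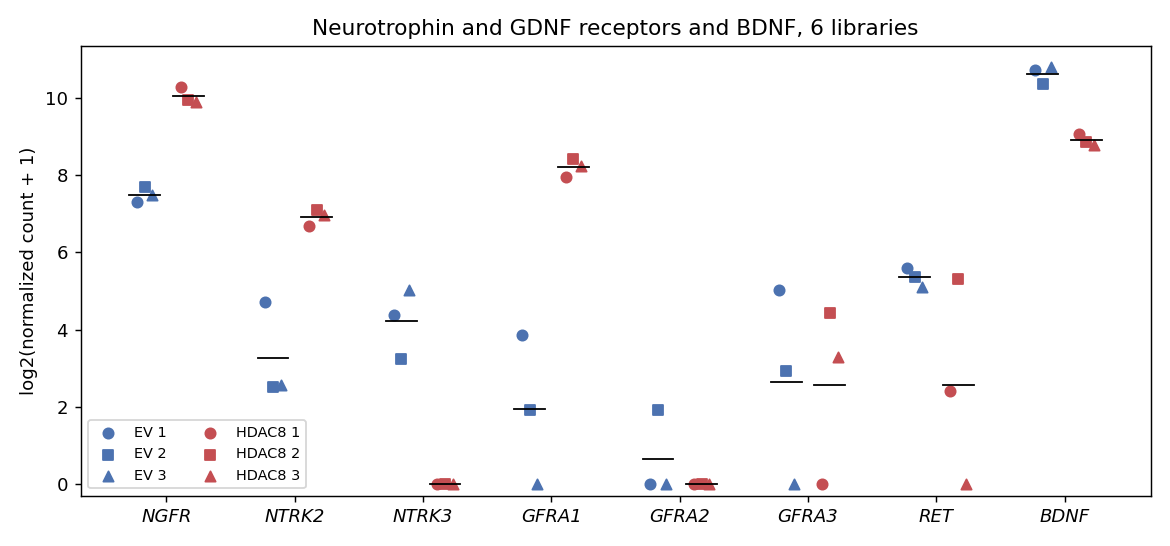
Normalized counts of the 8 genes on a log2(value + 1) axis, 1 point per library (circle, square and triangle for replicates 1, 2 and 3), EV in blue and HDAC8 in red, with a black line at the mean of the log values of each group. NGFR, NTRK2 and GFRA1 lie higher in HDAC8, NTRK3 and BDNF lower, and RET and GFRA3 overlap.

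NGFR (ENSG00000064300, GRCh38 chromosome 17, 49495293 to 49515008, plus strand) had 155.2, 206.4 and 176.3 normalized counts in EV. It had 1242, 985.2 and 949.6 in HDAC8. The lowest HDAC8 library was well above the highest EV library. The group means went from 179.3 ± 25.7 to 1059 ± 159.8 (SD, n = 3), a 5.90-fold difference (95% interval 4.10 to 8.50, log2 fold change 2.56, SE 0.27). Across 11 alternative settings the log2 fold change ran from 2.43 to 2.67. Its SE was smaller than those of NTRK2 and GFRA1, the other genes that were higher. NGFR-AS1, an antisense gene that overlaps NGFR, had no count in any library.

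Among the TRK receptors, NTRK2 and NTRK3 moved in opposite directions. NTRK2 (ENSG00000148053, chromosome 9, 84668375 to 85095751, plus strand), which encodes TRKB, the receptor for BDNF and NTF4, had 25.2, 4.67 and 4.93 normalized counts in EV and 100.9, 135.2 and 123.1 in HDAC8. The 3 HDAC8 libraries were close together and above EV, where EV 1 stood above the others. The log2 fold change was 3.38 (SE 0.83), a 10.4-fold difference with a 95% interval of 3.36 to 32.1, and it was 4.64 without EV replicate 1. The deposited counts behind the EV values were 24, 5 and 5, with exact Poisson 95% intervals of 15.4 to 35.7 for the first and 1.62 to 11.7 for the others, so EV 1 differed from the other EV libraries by more than counting error. Counts per gene do not separate full-length TRKB from the forms that lack the kinase.

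NTRK3 (ENSG00000140538, chromosome 15, 87859751 to 88256791, minus strand), which encodes TRKC, the receptor for NTF3, had 19.9, 8.4 and 31.5 normalized counts in EV and no count in any HDAC8 library. Every EV library had reads, 19, 9 and 32 of them. The EV mean was 6.72-fold above a floor of 3 counts per library. The floor was the upper 95% Poisson limit for a count of 0, taken on that side only. The exact Poisson intervals given for other counts used both sides. The 6.72-fold figure leaves out the spread of the EV libraries. In the fit the log2 fold change was -6.78 (SE 2.26, 95% interval -11.22 to -2.35). NTRK3 was past both thresholds, but not by edgeR or without EV replicate 1, EV replicate 2 or HDAC8 replicate 3, and DESeq2 gave no adjusted p without EV replicate 3. It was lower in every alternative that gave a value, including those that lost the call.

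GFRA1 had the largest fold change of the genes that were higher. GFRA1 (ENSG00000151892, chromosome 10, 116056925 to 116276803, minus strand), the co-receptor that GDNF prefers, had 13.6, 2.8 and 0 normalized counts in EV and 248.0, 338.0 and 299.5 in HDAC8. The EV values rest on 13, 3 and 0 counts and the HDAC8 values on 290, 330 and 275. GFRA1 was thus close to the floor in the EV libraries other than EV 1 and plainly detected in all HDAC8 libraries. The group means went from 5.48 ± 7.2 to 295.1 ± 45.1 (SD, n = 3). On the log2 scale the change was 5.77 (SE 0.72), which is 54.7-fold with a 95% interval of 20.5 to 146, and it was 7.69 without EV replicate 1, the library with most of the EV reads.

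The other GFRA genes did not share this pattern. GFRA2 (ENSG00000168546, chromosome 8, 21690398 to 21812357, minus strand), the co-receptor preferred by neurturin, had 3 counts in EV 2 and none in the other libraries, so no difference was detectable at this depth. GFRA3 (ENSG00000146013, chromosome 5, 138252380 to 138274621, minus strand), the co-receptor for artemin, had 30, 7 and 0 counts in EV and 0, 20 and 8 in HDAC8. Each group held a library without reads, and the log2 fold change was -0.38 with an SE of 2.11 and a 95% interval from -4.52 to 3.75. Its direction turned without EV replicate 1 (1.57) or HDAC8 replicate 1 (0.20).

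RET (ENSG00000165731, chromosome 10, 43077064 to 43130351, plus strand), the kinase that the GFRA co-receptors share, had 47.2, 40.2 and 33.5 normalized counts in EV. It had 4.28, 38.9 and 0 in HDAC8. EV was even, while HDAC8 2 reached the level of EV and the other HDAC8 libraries were near or at 0. The counts in HDAC8 were 5, 38 and 0, and the exact Poisson intervals of the first (1.62 to 11.7) and the second (26.9 to 52.2) do not meet, so these libraries differed by more than counting error. The log2 fold change was -1.49 (SE 1.37, 95% interval -4.18 to 1.21) and the gene was not called. Without HDAC8 replicate 2 the log2 fold change was -4.18 and RET was past both thresholds. No HDAC8 library, where GFRA1 was high, was above the highest EV library for RET. NCAM1, the other partner of the GFRA proteins, was called lower in HDAC8, with 4978, 5910 and 6008 normalized counts in EV and 1678, 1419 and 1897 in HDAC8 (log2 fold change -1.76, SE 0.17, DESeq2 adjusted p = 1.92e-23).

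BDNF, the only ligand among the 8 genes, moved against its receptor NTRK2. BDNF (ENSG00000176697, chromosome 11, 27654893 to 27722058, minus strand) had 1667, 1317 and 1781 normalized counts in EV and 528.4, 460.9 and 439.9 in HDAC8. All HDAC8 libraries were below all EV libraries. The group means went from 1588 ± 242.0 to 476.4 ± 46.2 (SD, n = 3), a 3.33-fold lower level (95% interval 2.46 to 4.51, log2 fold change -1.74, SE 0.22).

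BDNF overlaps an antisense gene, BDNF-AS (chromosome 11, 27506830 to 27698231, plus strand), and the deposited counts show that reads were shared between them. In EV the expected counts were not whole, at 1589.75, 1409.92 and 1807.72 for BDNF and 377.25, 211.08 and 282.28 for BDNF-AS. Their sums were whole, at 1967, 1621 and 2090. In HDAC8 both were whole, with 618, 450 and 404 counts for BDNF and 67, 34 and 59 for BDNF-AS. BDNF-AS took 13.0% to 19.2% of the sum in EV and 7.02% to 12.7% in HDAC8. Since strand-specific counting is not stated, reads of the 2 genes cannot be told apart. BDNF-AS alone, named here after its values were seen, fell from 290.1 ± 99.7 to 52.1 ± 15.4 normalized counts (SD, n = 3), a change of -2.48 on the log2 scale (SE 0.49, DESeq2 adjusted p = 1.64e-05). With both genes summed to 1 gene, an alternative chosen after seeing the data, the means were 1878 ± 316 and 529 ± 49.7 (SD, n = 3) and the log2 fold change was -1.83 (SE 0.22). The sum does not say which of the 2 transcripts was lower.

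**Figure D2:**
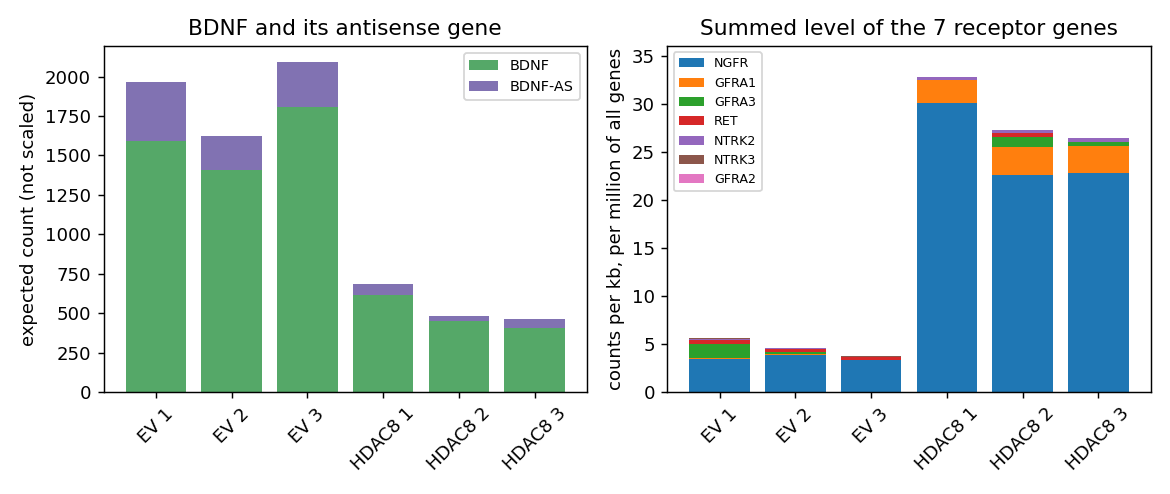
Left, expected counts of BDNF (green) and BDNF-AS (purple) stacked for each library, not scaled for depth, which sum to 1621 to 2090 in EV and 463 to 685 in HDAC8. Right, levels per length (TPM scale, counts per kilobase of exon) of the 7 receptor genes stacked for each library, which sum to 3.70 to 5.59 in EV and 26.4 to 32.8 in HDAC8, most of it NGFR.

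The start regions of the genes were searched for short motifs because the study concerns JUN, which binds AP-1 sites, and MITF, which binds E-boxes. RefSeq (GRCh38.p14) windows of 300 bases, 250 before and 50 after a start, were at hand for 17 starts of 6 of the genes, NTRK2, NTRK3, GFRA1, GFRA3, RET and BDNF. TGANTCA (AP-1) and TGACGTCA (CRE) were in 0 of the 17, against 7.71% and 1.85% of 35116 windows over all genes. CACGTG was in 1 window (7.26% of all) and CATGTG in 3 (11.1% of all), counted on both strands. CATGTG was found once each for NTRK2, GFRA1 and BDNF, and the BDNF window also held the CACGTG. The windows of BDNF and NTRK2 that held a match and no annotated exon are shown up to the start, with the matches in capitals. A match is a description of letters, and the counts per gene do not say which start was used.
BDNF (chr11:27720780-27721029, minus strand): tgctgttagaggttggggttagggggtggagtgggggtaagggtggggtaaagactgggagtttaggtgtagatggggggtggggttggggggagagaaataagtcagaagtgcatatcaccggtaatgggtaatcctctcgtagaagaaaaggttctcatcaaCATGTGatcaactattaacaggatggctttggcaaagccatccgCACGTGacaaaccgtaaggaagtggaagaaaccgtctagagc
NTRK2 (chr9:84701355-84701604, plus strand): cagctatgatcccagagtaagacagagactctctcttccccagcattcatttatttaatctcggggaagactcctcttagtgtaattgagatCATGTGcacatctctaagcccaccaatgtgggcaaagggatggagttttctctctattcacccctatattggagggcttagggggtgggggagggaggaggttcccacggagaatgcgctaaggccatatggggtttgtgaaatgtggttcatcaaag
In the BDNF window the CATGTG began 86 bases and the CACGTG 42 bases before the start.

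Levels of the 8 genes were compared per length, as counts per kilobase of exon scaled to TPM. In EV the order was led by BDNF, at a level of 16.9 ± 3.28 (SD, n = 3), then NGFR at 3.54 ± 0.309. GFRA3 (0.566 ± 0.77) and RET (0.373 ± 0.097) followed, and their libraries overlapped. NTRK3 (0.0612 ± 0.0339), GFRA1 (0.0457 ± 0.0623), NTRK2 (0.0306 ± 0.0334) and GFRA2 (0.0126 ± 0.0218) came last, and each overlapped the next. In HDAC8 the level of NGFR was 25.1 ± 4.29 (SD, n = 3), above BDNF at 6.05 ± 0.694, so the order of these genes was the reverse of that in EV, with no overlap in either group. GFRA1 came next at a level of 2.71 ± 0.343, apart from both neighbours in the order. GFRA3 (0.47 ± 0.489), NTRK2 (0.353 ± 0.0427) and RET (0.153 ± 0.225) each overlapped the next, and NTRK3 and GFRA2 were at 0.

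Set among 19591 protein-coding genes ordered by this level, NGFR stood at rank 10421 in EV and 5130 in HDAC8, and BDNF at 5990 and 9780. GFRA1 went from rank 15063 to 11096 and NTRK2 from 15266 to 13514. Levels of the 7 receptor genes summed to 5.59, 4.59 and 3.70 in EV and 32.8, 27.3 and 26.4 in HDAC8. NGFR made up 61.1%, 84.8% and 89.4% of the sum in EV and 91.8%, 82.5% and 86.4% in HDAC8. GFRA1 made up at most 2.09% in an EV library and 7.11% to 11.0% in HDAC8, so NGFR carried most of the summed level in both groups. The exon length of NTRK2 summed over all annotated forms is 33162 bases, and by its longest transcript its level was 0.0879 in EV and 0.988 in HDAC8, which placed its mean above that of GFRA3 in HDAC8 (0.376 by the same measure). BDNF by its longest transcript was at 22.6 and 7.80, with the same order.

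The other ligands were examined next, from a list of 60 further genes of the pathway. NTF3, the main ligand of TRKC, had no count in any library. NTF4, a second ligand of TRKB, had reads in HDAC8 1 only. GDNF, the ligand of GFRA1, had 0, 15.9 and 0 normalized counts in EV and 183.8, 147.5 and 172.1 in HDAC8. All HDAC8 libraries were above EV, where only EV 2 had reads. The log2 fold change of GDNF was 4.98 with an SE of 1.93 and 9.81 without EV replicate 2, and DESeq2 did not call it (adjusted p = 0.0677). edgeR's quasi-likelihood test did (adjusted p = 7.20e-04), and the DESeq2 call depended on the libraries, with an adjusted p of 8.26e-08 without EV replicate 2, at most 1.27e-04 without EV replicate 1 or 3, and 0.261 to 0.313 without any 1 of the HDAC8 libraries.

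Of the remaining GDNF family ligands none was called. Artemin (ARTN) had 0, 2.8 and 0 normalized counts in EV and 11.1, 6.14 and 7.62 in HDAC8. The groups did not overlap, and DESeq2 gave no adjusted p at these counts. Neurturin (NRTN) had 60.8, 168.1 and 81.8 in EV and 185.6, 115.7 and 127.4 in HDAC8, and persephin (PSPN) 324.0, 427.7 and 239.4 and 382.2, 321.6 and 430.1. Both overlapped, with log2 fold changes of 0.46 (DESeq2 adjusted p = 0.74) and 0.19 (DESeq2 adjusted p = 0.843). GFRA4, the co-receptor for persephin, had no count in any library.

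**Figure D3:**
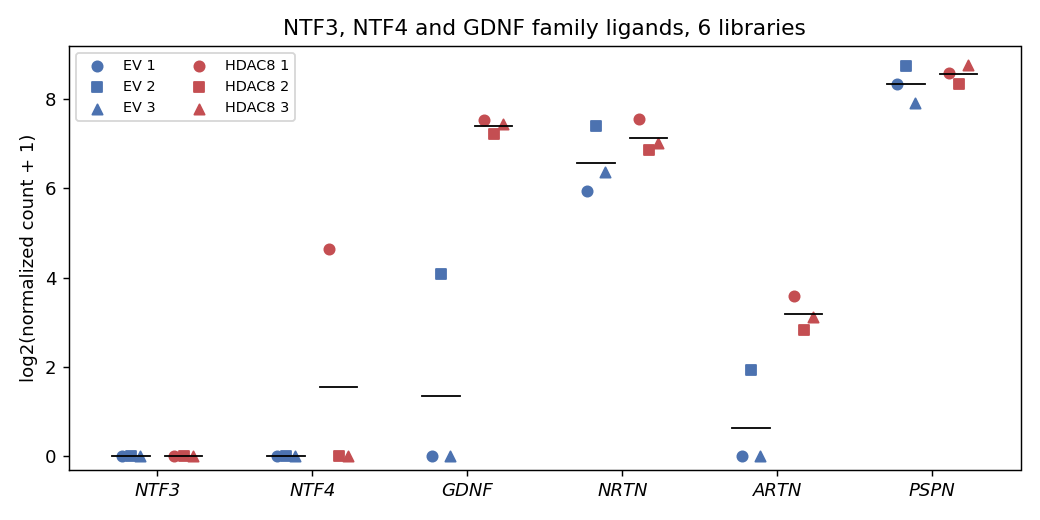
Normalized counts of the neurotrophins NTF3 and NTF4 and of the 4 GDNF family ligands on a log2(value + 1) axis, 1 point per library, EV in blue and HDAC8 in red, with a black line at the mean of the log values of each group. GDNF lies near 0 in EV apart from EV 2 and between 147.5 and 183.8 normalized counts in HDAC8, and NRTN and PSPN overlap.

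The list of 60 pathway genes was drawn up with earlier results of these data known, as was the later list of neurotrophin-induced genes. Their shares called are a description only. Over the whole list, 54 were fitted and 50 had an adjusted p. Of these, 4 were called higher and 6 lower, 20% of those tested against 11% over all genes. The median log2 fold change of the fitted genes was -0.14 against 0 over all genes. In 7 of the 54 fitted the HDAC8 libraries were all above those of EV, and in 19 all below. Over all genes the shares above and below were 11.3% and 12.7%. Among the receptors of pro-neurotrophins, SORT1, which forms a complex with p75NTR, had 16660, 18910 and 17950 normalized counts in EV and 15230, 16260 and 16450 in HDAC8 and was not called (log2 fold change -0.16, DESeq2 adjusted p = 0.493). Its relative SORCS1 fell from 6124 ± 477.2 to 3547 ± 210.0 (SD, n = 3, log2 fold change -0.79, DESeq2 adjusted p = 1.29e-06), and SORL1 was not called.

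Of 9 partners of p75NTR, 1 rose and 3 fell, 44.4% of those tested against 11% over all genes. NDN (necdin), which binds p75NTR inside the cell, had 299.9, 481.0 and 352.7 normalized counts in EV and 61.6, 32.8 and 50.1 in HDAC8. It changed by -2.97 on the log2 scale (SE 0.44, DESeq2 adjusted p = 1.45e-09). LINGO1 and RTN4R, which join p75NTR in the Nogo receptor complex, fell by log2 fold changes of -1.32 (DESeq2 adjusted p = 3.20e-07) and -0.81 (DESeq2 adjusted p = 0.00634), and the call of RTN4R was lost without EV replicate 2 or EV replicate 3. MAGED1, also a cytoplasmic partner of p75NTR, rose from 6765 ± 846.0 to 12510 ± 960.5 (SD, n = 3, log2 fold change 0.89, DESeq2 adjusted p = 3.05e-08). The partners BEX3, TRAF6, RIPK2, ARHGDIA and PRDM4 were not called. NGFR was therefore higher in libraries in which its surface partners LINGO1 and RTN4R were lower and its adaptors differed in direction.

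Among enzymes that act on the ligands or receptors, PLAT, the tissue plasminogen activator, which generates the plasmin that can cleave pro-BDNF, rose. It had 4653, 6882 and 5350 normalized counts in EV and 15510, 14220 and 15290 in HDAC8 (log2 fold change 1.41, SE 0.16, DESeq2 adjusted p = 6.29e-17). FURIN, a protease that matures pro-neurotrophins, had a log2 fold change of 0.52 (DESeq2 adjusted p = 0.0152), under the minimum of 0.58. Of the proteins that cleave p75NTR, PSEN2 fell (-0.75, DESeq2 adjusted p = 0.0291), a call that was lost with total-count size factors (adjusted p = 0.0603) and without EV replicate 1, 2 or 3 or HDAC8 replicate 2 or 3. ADAM10 and ADAM17 were not called.

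Of 26 adaptors of TRK and RET, 24 had an adjusted p and 2 of them rose. The share called was 8.33% of those tested, near the 11% over all genes. In 9 of the 25 fitted adaptors the HDAC8 libraries were all below those of EV, and in 2 all above. Over all genes the shares below and above were 12.7% and 11.3%. The median log2 fold change of the adaptors was -0.19. SHC2 had 82.8, 85 and 79.8 normalized counts in EV and 519.0, 213.0 and 393.1 in HDAC8, which is 2.18 on the log2 scale (SE 0.44, DESeq2 adjusted p = 2.19e-05). The EV libraries were within a narrow range and all HDAC8 libraries were above them. DOK1 rose by 1.07 (SE 0.36, DESeq2 adjusted p = 0.0271), and was not called by edgeR (adjusted p = 0.0593) or when any 1 library was left out (adjusted p from 0.0552 to 0.137). The common adaptors SHC1, FRS2, GRB2, GAB1, SOS1, PLCG1 and PTPN11 had log2 fold changes between -0.45 and 0.26 and were not called.

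**Figure D4:**
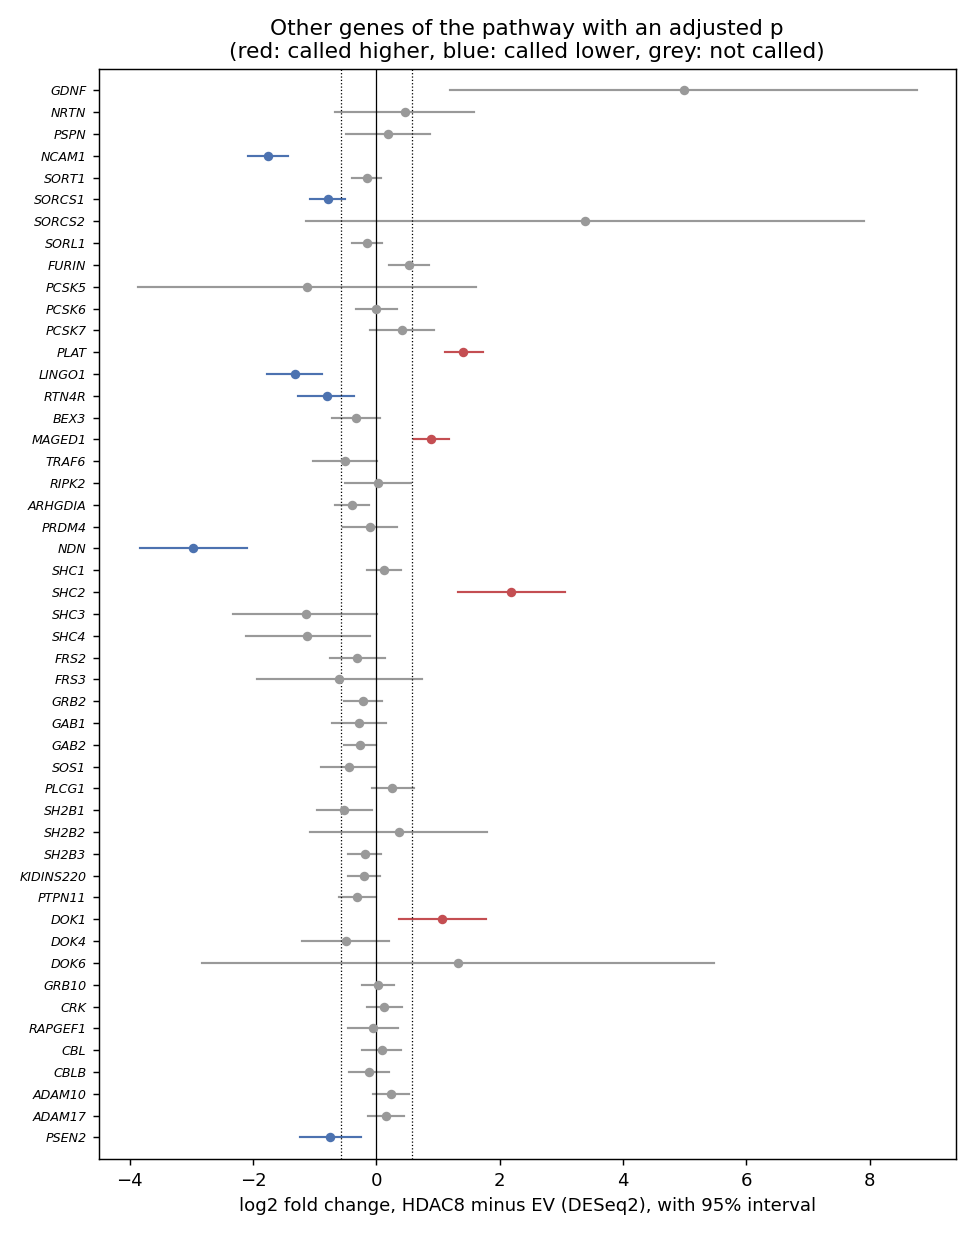
DESeq2 log2 fold changes (HDAC8 minus EV) with 95% intervals for other pathway genes that had an adjusted p, 1 of which is not shown, with dotted lines at the fold change minimum of 0.58 in both directions. Genes called higher are in red (PLAT, MAGED1, SHC2 and DOK1), genes called lower in blue (NCAM1, SORCS1, LINGO1, RTN4R, NDN and PSEN2), and GDNF has a wide interval.

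Genes that neurotrophins are known to induce in neurons were taken as a readout that lies downstream. Of 14, 13 had an adjusted p, with 3 called higher and 1 lower (30.8% called, against 11% over all genes) and a median log2 fold change of 0.13. NPTX2, a secreted pentraxin of synapses that BDNF induces, had 937.5, 1185 and 929.0 normalized counts in EV and 5528, 5644 and 5293 in HDAC8 (log2 fold change 2.43, SE 0.16, DESeq2 adjusted p = 1.04e-47). PLAUR, the urokinase receptor, rose by 1.24 (DESeq2 adjusted p = 1.30e-05). FOSB rose by 0.76 (DESeq2 adjusted p = 0.0447), a call not kept by edgeR (adjusted p = 0.0553) or without EV replicate 1, 2 or 3 or HDAC8 replicate 1 or 3. EGR3 fell (log2 fold change -0.91, DESeq2 adjusted p = 1.60e-07). VGF, a neuropeptide precursor known for its induction by neurotrophins, had 74750, 117600 and 78420 normalized counts in EV and 110400, 108100 and 110900 in HDAC8, which overlapped, and was not called (DESeq2 adjusted p = 0.295). Of the other immediate early genes on the list, EGR1, EGR2, ARC, FOS, JUNB and NR4A1 were not called, and such genes also respond to other stimuli.

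To ask whether changes extended beyond the genes themselves, the nearest fitted protein-coding gene on each side of each of the 8 genes was examined. Of these 16 neighbours, 14 had an adjusted p, 1 was called higher and 1 lower. Over all genes 11% were called in either direction, so calls among the neighbours were near the background. Around NGFR, PHB (80.4 kb away) had a log2 fold change of -0.31 and NXPH3 (60.9 kb away) of -0.53, and neither was called. ATRNL1, 108 kb from GFRA1, fell in HDAC8, with 557.9, 499.7 and 397.0 normalized counts in EV and 111.2, 269.4 and 108.9 in HDAC8 (log2 fold change -1.57, DESeq2 adjusted p = 0.00267, and 0.0539 without EV replicate 1). GFRA1 and this neighbour thus moved in opposite directions. XPO7, 107 kb from GFRA2, was called higher (0.62, DESeq2 adjusted p = 0.00307) by a margin that the fits without EV replicate 2 (0.56) or HDAC8 replicate 2 (0.52) took under the fold change minimum. LIN7C, 148 kb from BDNF, had a log2 fold change of -0.89 (DESeq2 adjusted p = 0.278) and KIF18A on the other side -0.53 (DESeq2 adjusted p = 0.0707). Neither was called, but in both all HDAC8 libraries were below all EV libraries. The same held for ATRNL1 and for PNLIPRP3, on the other side of GFRA1 and not called. Of the neighbours only XPO7 had all HDAC8 libraries above all EV libraries. Over all genes fitted, 12.7% had all HDAC8 libraries below EV and 11.3% all above. Whether the neighbours differ from these shares was not tested.

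The genes with the most similar pattern over the 6 libraries were found by Pearson's correlation of log2(normalized count + 1) among 14451 genes with a mean of at least 50. The log2 fold change follows each r. For NGFR (2.56) these were OPRD1 (r = 0.9991, 2.44), COL6A3 (0.9986, 3.07) and MYO1E (0.9983, 0.82). For GFRA1 (5.77) they were OCRL (0.9995, 0.5), CPA4 (0.9958, 3.29) and DDX25 (0.994, 2.37). For NTRK2 (3.38) they were TGFA (0.9955, 0.82), GNAL (0.9952, 0.62) and STEAP1 (0.9951, 1.4). For BDNF (-1.74) they were RBM47 (0.9959, -1.36), LGALS8 (0.9958, -1.97) and PWAR5 (0.9956, -1.52). The r does not depend on the size of a change, and several of these genes changed far less than the gene they were matched to. The points share 6 libraries that fall into the 2 groups compared, and an r over 0.95 was reached by 540 genes for NGFR, 328 for BDNF, 152 for GFRA1 and 110 for NTRK2. The values are a description only.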

How the data were processed

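Total RNA of 6 WM164 libraries, 3 per group by the labels, was sequenced as paired ends. The authors used Trimmomatic for trimming, STAR for transcriptome alignment and RSEM for quantification, so the deposited values are expected counts, not scaled between libraries. Genome build, annotation release and strand-specific counting are not given in the sources used here, and the labels and the study name different RNA kits. The values were rounded, and 26162 genes with a total of at least 10 counts were fitted with DESeq2 1.42.0 in R 4.3.3 (two-sided Wald test, no covariates, Benjamini-Hochberg adjustment over all genes). No adjusted p was given for 5141 genes. A gene with no count was set against a floor of 3 counts per library (2.57 to 3.27 normalized counts), which, like the Poisson intervals, covers counting error only.

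Positions, exon lengths and neighbours were read from GENCODE (release 44, GRCh38), in which 56558 of the identifiers were found, and promoter windows from RefSeq. Levels per length used the union of exons. The 8 genes and the gene lists were chosen with earlier results of these data known. Named genes are the 8, other ligands, GFRA4, SORT1, and called genes of the lists and neighbours, and the 3 most similar genes for members with a mean of at least 50 normalized counts. Alternatives were edgeR 4.0.16, total-count size factors, other count minimums, a replicate block, leaving out each library and the longest transcript as gene length. Some genes of the lists are counted in the totals but not reported here by name. The script was tested on simulated data. No pair of libraries within a group agreed within counting error (ratio of chi-square to degrees of freedom 26.0 to 153.4).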

Additional observations from a re-analysis of the deposited data

How the results depend on the processing

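Fitted values of 7 of the 8 genes were compared with 72 alternatives, of which 63 kept direction and call. The alternatives reuse the libraries in which the 8 genes were chosen. A call that is kept therefore describes the fit and is no test of the gene. NTRK3 was no longer past the thresholds with edgeR (log2 fold change -7.35) and with the replicate block (-6.62), and across fits without 1 library it ran from -7.15 to -6.68, with no adjusted p without EV replicate 3. GFRA3 turned direction with the replicate block (1.31) and ran from -1.54 to 1.57 without 1 library. RET ran from -4.18 to -0.90 and was called without HDAC8 replicate 2. NGFR, NTRK2, GFRA1 and BDNF kept direction and call in every alternative that gave a value, and a minimum of 10 counts in every library left out all but NGFR and BDNF. Of 248 alternatives for 23 other named genes 217 kept direction and call, 26 lost the call, 5 (all of GDNF) gained it and 0 turned direction.

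Over all genes 1170 were called higher and 1143 lower. Without 1 library, 877 to 1218 were higher and 746 to 1378 lower, with the fewest lower genes without EV replicate 3. Of the other pathway genes 10 were called, and 8 to 11 under the alternatives. EV and HDAC8 libraries of the same number had deviations from their group means that correlated at r = -0.0273, -0.0663 and 0.0399, so the numbers did not pair the libraries. Blocking on them gave 1075 higher and 1078 lower genes, lost the calls of DOK1 and FOSB and gained that of GDNF. Where no value is named, the cause of a change was not tested. Low counts limit RET, GFRA2, GFRA3 and NTRK3.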
